A study of Mus musculus with 6 samples.

Results

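Described here are 25 genes of AE9a leukemia cells that were counted in every wild-type library and were at or near 0 in every Ddit4 knockout library. The genes were chosen by their raw counts: a gene was taken when its count was at least 100 in each of the 3 AE9a-Ddit4+/+ libraries and at most 8 in each of the 3 AE9a-Ddit4-/- libraries. This left 25 of the 55421 genes in the table, after symbols starting with Hox and the gene Radx (4 genes in all that met both limits) had been set aside. The limits fix the direction of every one of the 25 genes, so their difference between genotypes is given as a description, with no test. The same limits with the genotypes exchanged were met by 232 genes.

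The libraries came from GFP+ leukemia cells of bone marrow on the C57BL/6 strain. AE9a, a truncated form of the AML1-ETO (RUNX1-RUNX1T1) fusion protein of acute myeloid leukemia, had been brought by retrovirus into c-Kit+ stem and progenitor cells of Ddit4+/+ or Ddit4-/- donor mice, and all 6 libraries carry it. The cells were passed through irradiated C57BL/6 recipients, and the labels name IMDM with serum as the medium in which leukemia cells were kept. Ddit4, the gene removed in the knockout donors, encodes a stress-induced inhibitor of mTORC1 signaling. The cells came from the marrow of transplanted mice, with n = 3 in either group. The sources used here do not say that each library began as its own primary leukemia. In the paper's primary transplants, only a minority of mice given AE9a-Ddit4-/- cells developed leukemia, fewer mice than there are knockout libraries here. If the knockout libraries came from those mice, some of them share a primary leukemia. A trait of a shared leukemia and an effect of genotype cannot then be told apart. Thus n is a number of libraries, and their spread may not be that between independent leukemias.

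As background, a leukemia carries the silenced and active chromatin of the cell in which it began, together with what it acquired later. Genes for neuronal ion channels, or for transcription factors of the kidney, eye and brain, are kept silent in most normal blood cells, although Wt1 and some others are read in leukemias. RUNX1, whose DNA-binding part is kept in AE9a, binds short sites with the core TGTGGT or TGCGGT.

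Library totals ran from 62141558 to 72717681 counts. Ddit4 itself had 14379 counts in replicate 1 of AE9a-Ddit4+/+. Its RNA was at 227, 161 and 341 CPM (counts per 1000000 counts of the scaled library) in the 3 wild-type libraries, against 84.9, 77.6 and 85.8 CPM in the knockout libraries (edgeR adjusted p = 0.00635). By western blot, the paper reports no DDIT4 protein in AE9a-Ddit4-/- leukemia cells. Which part of the gene the knockout allele lacks is not given in the sources used here. Wild-type and knockout libraries differed in sex makeup, as Ddx3y, on the Y chromosome, was at 88.2 to 125 CPM in knockout and at most 0.0773 CPM in wild type. Ddx3y alone does not show that all cells of a knockout library were male. Ptprc (CD45, on white blood cells) was detected in all libraries, at 60.6 to 170 CPM in wild type, against 453 to 666 CPM in knockout. Kit, used to select the donor cells, was at 14.6 to 31.6 CPM in wild type, against 304 to 508 CPM in knockout. Erythroid marker genes summed to 8450 to 17178 CPM in wild type, against 693 to 1236 CPM in knockout, and markers of megakaryocytes to 118 to 180 CPM and 2381 to 3308 CPM. Sex, lineage makeup and genotype cannot be told apart in 3 against 3 libraries, and in bulk RNA fewer cells of a type and less RNA per cell cannot be told apart either.

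The 25 genes added up to 18894, 14057 and 20684 counts in the wild-type libraries and to 27, 18 and 28 counts in the knockout libraries. There were 18 genes with no count in any knockout library. The other 7 (Pawr, Plek2, Mpped2, Tmem246, Tgfa, Gm29677 and Kif27) held the 14 knockout values above 0 among 75, the highest being 8. A knockout library at 0 still allows up to 12 counts, here taken as the floor (3 fragments if each was counted 4 times), which is 0.163 to 0.197 CPM. The floor lies above every knockout count of the other 7 genes, but it was set for a library at 0. For those 7 it is no upper limit, and their bounds hold against the floor only. With the mean of the 3 wild-type libraries set against the highest floor of the knockout libraries, the genes were at least 11.0-fold (Kif27) to at least 175-fold (Pawr) lower. The median bound was 37.0-fold. These bounds leave out the wild-type spread, so a single wild-type library can lie below them. Plek2, with a bound of 109-fold, was at 34.8, 4.58 and 25.3 CPM in the wild-type libraries. All 25 genes were also past the threshold of the edgeR fit across 18375 genes, in which 10.7% of genes were lower and 19.4% higher in AE9a-Ddit4-/-. Since the rule used this contrast, nothing is read from that count.

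**Figure D1:**
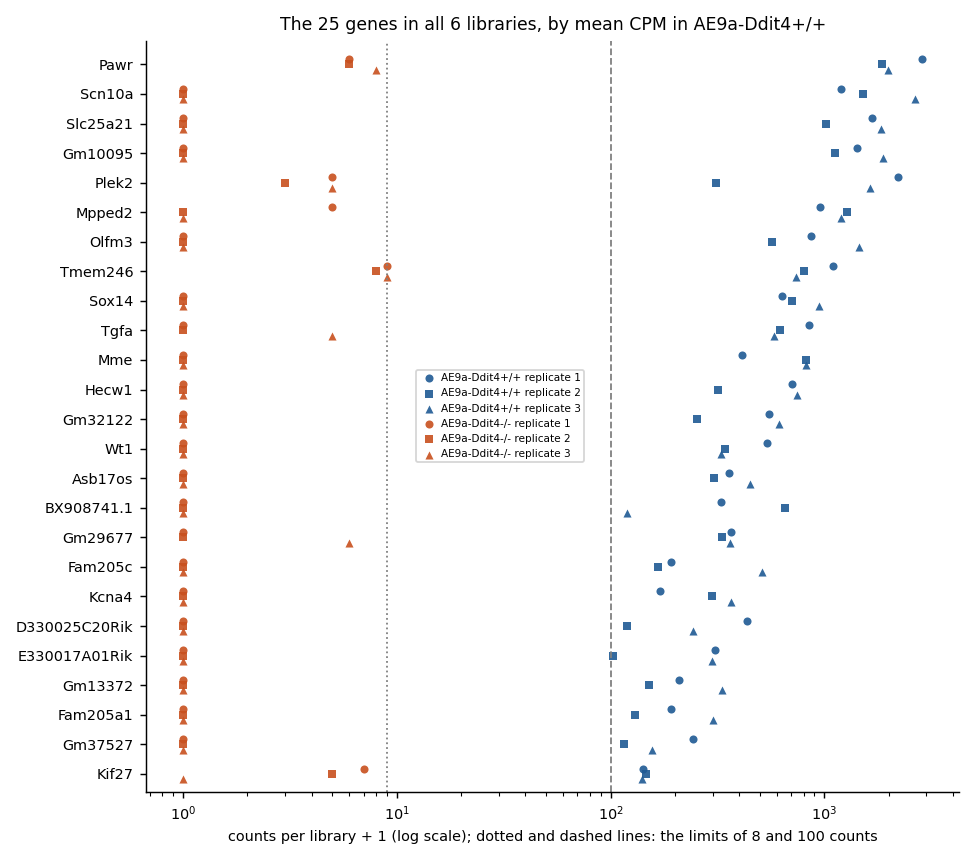
Counts of the 25 genes in each of the 6 libraries, plotted as count + 1 on a log axis, with genes ordered by mean CPM in AE9a-Ddit4+/+; each point is 1 library. The wild-type points run from 102 counts (E330017A01Rik) to 2878 counts (Pawr) and the knockout points from 0 to 8 counts, as the rule requires.

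In wild type the genes were of middling level. Their mean CPM ran from 2.17 (Kif27) to 34.5 (Pawr), with a median of 7.31 CPM beside 8.17 CPM over all genes tested, so that they lay between percentiles 37.8 and 69.2 of the tested genes. Per kb of exon, Gm10095 (46.9 CPM per kb), Pawr (19.8), Plek2 (13.6), Asb17os (5.96) and Sox14 (5.64) were the highest in CPM per kb. By annotation 17 genes were protein coding (68.0%, beside 75.0% of all genes tested), 2 were lincRNAs, 2 were unclassified transcripts awaiting experimental evidence (TEC), and 1 each was a processed pseudogene, an antisense RNA and a processed transcript. BX908741.1 had no position in the annotation. The 24 placed genes lay on 11 chromosomes, with 4 on chromosome 2 and none on X or Y.

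The genes just inside and just outside the limits differed little. On the knockout side, Tmem246 (8, 7 and 8 counts) was inside, while Ugt8a (8, 0 and 9 counts), AI427809 (9, 0 and 9) and Phlda2 (0, 4 and 9) were outside. On the wild-type side, E330017A01Rik (308, 102 and 298 counts), Gm37527 (241, 115 and 156) and D330025C20Rik (432, 118 and 242) were inside. Clgn (151, 232 and 97 counts), Zg16 (183, 97 and 183) and Gm21955 (194, 88 and 298) were outside. Wild-type replicate 2 held the lowest value in all 3 of the genes just inside the wild-type limit.

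Promoter windows of RefSeq on GRCm38.p6, 250 bases before to 50 bases after the start, were available for 15 of the 25 genes, and the most upstream window of a gene was used. Shown here are the 250 bases before the start for the 5 genes whose window holds a RUNX core (Kcna4, Sox14, Asb17os, Fam205a1 and Fam205c) and for Mpped2, which lies on chromosome 2 between Wt1 and Kcna4. Capitals mark matches, on either strand, to the RUNX core (TGTGGT or TGCGGT), the GATA motif (AGATAA or TGATAA), the HOX-PBX motif (TGATNNAT) and the E-box (CAGCTG or CATCTG).
Kcna4 (chr2:107290339-107290588, plus strand): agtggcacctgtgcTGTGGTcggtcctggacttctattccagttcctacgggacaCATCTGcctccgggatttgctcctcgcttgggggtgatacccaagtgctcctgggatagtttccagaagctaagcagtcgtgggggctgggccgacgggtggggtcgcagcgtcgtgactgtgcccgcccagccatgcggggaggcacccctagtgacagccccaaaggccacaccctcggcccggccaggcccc
Mpped2 (chr2:106692931-106693180, plus strand): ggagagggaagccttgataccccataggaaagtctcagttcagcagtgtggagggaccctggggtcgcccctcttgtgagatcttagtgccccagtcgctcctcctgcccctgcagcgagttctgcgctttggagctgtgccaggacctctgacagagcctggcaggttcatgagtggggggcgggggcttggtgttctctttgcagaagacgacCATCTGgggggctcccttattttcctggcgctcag
Sox14 (chr9:99876171-99876420, minus strand): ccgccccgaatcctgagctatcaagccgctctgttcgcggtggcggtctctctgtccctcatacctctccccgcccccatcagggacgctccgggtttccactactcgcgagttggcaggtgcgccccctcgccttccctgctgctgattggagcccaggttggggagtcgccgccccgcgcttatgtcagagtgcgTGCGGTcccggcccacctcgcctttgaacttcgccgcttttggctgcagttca
Asb17os (chr3:153852425-153852674, minus strand): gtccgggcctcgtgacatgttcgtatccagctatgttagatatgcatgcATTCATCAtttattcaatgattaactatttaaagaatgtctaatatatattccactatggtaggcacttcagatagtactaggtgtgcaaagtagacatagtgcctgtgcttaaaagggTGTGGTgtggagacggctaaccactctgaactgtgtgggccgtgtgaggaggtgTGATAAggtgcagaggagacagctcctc
Fam205a1 (chr4:42853889-42854138, minus strand): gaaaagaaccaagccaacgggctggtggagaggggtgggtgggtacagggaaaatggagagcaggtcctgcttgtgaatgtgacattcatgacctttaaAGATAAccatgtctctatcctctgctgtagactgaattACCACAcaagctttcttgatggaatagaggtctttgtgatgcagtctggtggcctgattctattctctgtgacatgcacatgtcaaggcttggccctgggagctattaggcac
Fam205c (chr4:42874235-42874484, minus strand): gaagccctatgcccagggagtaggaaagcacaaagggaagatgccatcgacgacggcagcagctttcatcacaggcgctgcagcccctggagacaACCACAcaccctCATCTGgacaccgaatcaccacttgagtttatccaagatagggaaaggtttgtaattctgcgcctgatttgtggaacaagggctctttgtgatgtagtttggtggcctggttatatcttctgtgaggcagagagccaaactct
The RUNX core lay 236 bases before the start in Kcna4, 53 in Sox14, 82 in Asb17os, 113 in Fam205a1 and 155 in Fam205c, counted to the first base of the match. It was found in 5 of 15 windows (33.3%) of the described genes and in 22.5% of the 27025 windows of all genes. The GATA motif was in 3 of 15 windows (20%, beside 18.9% of all) and the E-box in 4 (26.7%, beside 30.4%). The HOX-PBX motif and TATAAA were in 1 window each (6.67%, beside 9.02% and 14.2% of all), and the ETS motif CCGGAAG was in 0 of 15 (9.14% of all). GATA and HOX-PBX matches can overlap, as both can hold TGAT. GC content (median 52.0%, beside 52.7% of all windows) and the CpG ratio, observed over expected (0.403 beside 0.389), lay close to those of all windows, and 4 of 15 windows had a CpG ratio above 0.6 (26.7%, beside 36.5%). With 15 windows, 1 gene moves a share by 6.67 percentage points, and none of these gaps was tested.

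A first group of 3 genes acts in transcription and cell death. Pawr (ENSMUSG00000035873, chr10:108332121-108414240), which encodes Par-4, a pro-apoptotic protein known to bind WT1, had 2878, 1864 and 1982 counts in the wild-type libraries and 5, 5 and 7 in the knockout libraries. Its level was 34.5 ± 9.65 CPM (SD, n = 3) in wild type, at least 175-fold above the floor. Pawr was the most abundant of the 25 genes and also one of only 3 with a count in all knockout libraries, beside Plek2 and Tmem246. Wt1 (ENSMUSG00000016458, chr2:105126529-105173616), a zinc finger transcription factor of kidney and gonad development that is often read in acute leukemias, had 537, 344 and 328 counts in wild type (6.21 ± 1.98 CPM) and no count in knockout, at least 31.5-fold lower. Its divergent antisense gene Wt1os, which starts 19 bases away, had 54, 38 and 30 counts in wild type and 0 in knockout. Sox14 (ENSMUSG00000053747, chr9:99874106-99876170), an HMG-box factor of neural development with 1 exon, had 631, 707 and 941 counts (11.6 ± 2.52 CPM) in wild type and 0 in knockout, at least 59.0-fold lower. None of these groups overlapped, as the rule requires.

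Channels or a carrier are encoded by 3 genes. Scn10a (ENSMUSG00000034533, chr9:119608456-119719322), the alpha subunit of Nav1.8, a sodium channel of pain-sensing neurons, had 1198, 1515 and 2669 counts in wild type (27.5 ± 12.04 CPM) and 0 in each knockout library. Scn11a, which encodes Nav1.9, another sodium channel of pain-sensing neurons, and lies 34.4 kb away on the same strand, had 8, 0 and 4 counts in wild type and 3778, 2085 and 2414 in knockout, at least 224-fold higher (edgeR adjusted p = 0.000495). Scn10a was therefore counted only in wild type and its neighbour at more than the floor only in knockout. The annotated transcripts of the pair share a longest identical run of 25 bases, so a read of 150 bases can be told apart over most of their length.

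Other sodium channel genes were read from a fixed list. The accessory beta subunit gene Scn3b had 0 counts in wild type and 105, 67 and 123 in knockout, at least 7.83-fold higher (edgeR adjusted p = 0.00195). Scn4a, of skeletal muscle, had 25, 60 and 18 counts in wild type and 124, 47 and 88 in knockout, which overlap and did not pass the test (edgeR adjusted p = 0.150). Scn10a was the only listed sodium channel gene that was lower in knockout.

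Kcna4 (ENSMUSG00000042604, chr2:107290639-107298502), which encodes the potassium channel Kv1.4, had 169, 296 and 367 counts in wild type (4.24 ± 1.505 CPM) and 0 in knockout, at least 21.5-fold lower. Of 7 other Kcna genes in the table, only 1 was tested, and it did not pass the threshold. Slc25a21 (ENSMUSG00000035472, chr12:56712634-57197472), the mitochondrial carrier of 2-oxoadipate in the breakdown of lysine and tryptophan, had 1670, 1023 and 1839 counts in wild type (23.3 ± 7.21 CPM) and 0 in knockout, at least 118-fold lower. Of 14 listed genes of lysine and tryptophan breakdown, 10 were tested, 4 were lower (beside 10.7% of all genes tested), Slc25a21 by the rule, and 0 higher (beside 19.4%). Besides Slc25a21, the lower genes were Dlst, a subunit of 2-oxoacid dehydrogenases (log2 fold change −0.73, SE 0.18, edgeR adjusted p = 0.0207), Gcdh, glutaryl-CoA dehydrogenase (−1.32, SE 0.30, edgeR adjusted p = 0.0143), and Acmsd (66, 78 and 110 counts against 4, 0 and 0, at least 6.57-fold lower, edgeR adjusted p = 0.00845). Dhtkd1, which acts on 2-oxoadipate itself, had 5, 34 and 30 counts in wild type and 5, 16 and 52 in knockout. The call of Dlst was lost without wild-type replicate 1, wild-type replicate 3 or knockout replicate 3, and that of Gcdh without wild-type replicate 1 or knockout replicate 1 or 2 (highest adjusted p 0.0791 and 0.0513).

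Wt1, Mpped2 and Kcna4 lie in 1 stretch of 2172 kb on chromosome 2, with 1519.7 kb between Wt1 and Mpped2 and 422.28 kb between Mpped2 and Kcna4. Between Wt1 and Mpped2 lies Pax6, a transcription factor of eye and brain development, which had 10716, 14130 and 11429 counts in wild type and 4, 0 and 35 counts in knockout. Replicate 3 of the knockout kept Pax6 outside the rule. Pax6 was lower in knockout (edgeR adjusted p = 0.000774), and at 169 to 208 CPM in wild type it exceeded each of the 25 genes. Its neighbour Pax6os1 had 13 to 39 counts in 2 wild-type libraries and 0 in knockout but was not tested. The stretch holds 34 genes, of which 21 had at most 12 counts in every library. Of 8 genes there that are not among the 25 and were tested, 4 were lower (Pax6, Elp4, Arl14ep and the pseudogene Rpl10-ps1, whose call was lost without any 1 library other than knockout replicate 2), 0 were higher and 4 were not past the threshold (Them7, Rcn1, Immp1l and Dnajc24). Elp4, whose gene body follows Pax6, had 17.6 ± 1.89 CPM in wild type, against 7.87 ± 1.34 CPM in knockout (edgeR adjusted p = 0.0161). Its call was lost without wild-type replicate 1 or 3 or knockout replicate 1 or 2 (adjusted p up to 0.0711), and that of Arl14ep (log2 fold change −0.89, SE 0.23, edgeR adjusted p = 0.0220) without wild-type replicate 3 or knockout replicate 1 or 3 (up to 0.0723). Rcn1, also between Wt1 and Pax6, had 25.8 ± 6.94 CPM in wild type, against 38.6 ± 10.2 CPM in knockout and did not pass the test (edgeR adjusted p = 0.179). Along the stretch, genes near 0 in knockout alternated with genes that were counted in every library.

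**Figure D2:**
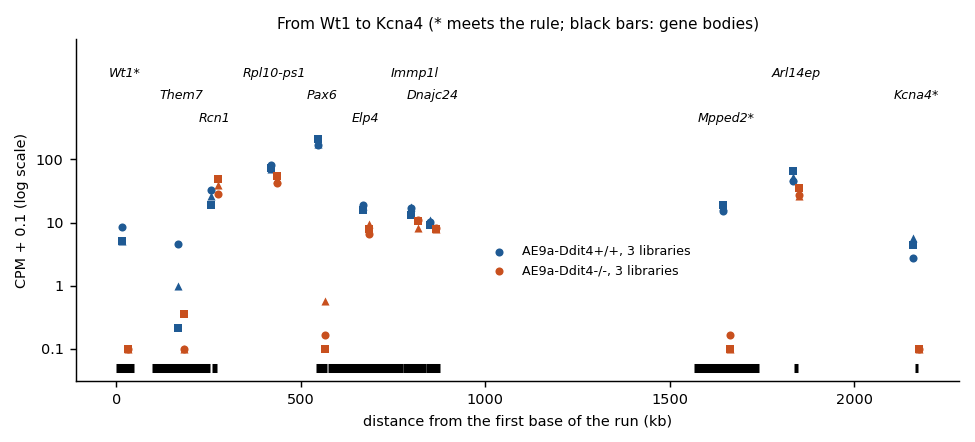
Levels of the tested genes in the stretch from Wt1 to Kcna4 in the 6 libraries (CPM + 0.1, log axis) against the distance in kb from the first base of the stretch; each point is 1 library, and black bars are gene bodies. Wt1, Pax6, Mpped2 and Kcna4 lie near 0 in knockout, with Rcn1, Elp4, Immp1l, Dnajc24 and Arl14ep counted in all libraries between them.

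Secreted or cell surface proteins, or an enzyme that modifies them, are encoded by 4 genes. Olfm3 (ENSMUSG00000027965, chr3:114904078-115125722), a secreted olfactomedin of neural tissue, had 862, 566 and 1455 counts in wild type (14.8 ± 7.16 CPM) and 0 in knockout, at least 75.1-fold lower. Of 13 listed genes with an olfactomedin domain, 9 were tested, 4 were lower (beside 10.7% of all genes tested), Olfm3 by the rule, and 1 higher (beside 19.4%). The lower ones besides Olfm3 were Olfm1 (37.1 ± 5.81 CPM in wild type, 3.06 ± 2.79 CPM in knockout, edgeR adjusted p = 0.0179), Olfml2b (log2 fold change −1.94, SE 0.49, edgeR adjusted p = 0.0226) and the adhesion receptor Adgrl2 (−2.76, SE 0.50, edgeR adjusted p = 0.00664). Without knockout replicate 1 the call of Olfm1 was lost (adjusted p up to 0.0693), and without wild-type replicate 1 or 2 that of Olfml2b (up to 0.0861). Olfm4, a granule protein of neutrophils, was counted in all libraries and did not pass the test (edgeR adjusted p = 0.468).

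Tmem246 (ENSMUSG00000039611, chr4:49584506-49597876), also called Pgap4, a Golgi enzyme that adds a sugar to the GPI anchors of surface proteins, had 1102, 803 and 736 counts in wild type (13.5 ± 3.37 CPM) and 8, 7 and 8 in knockout, at least 68.6-fold lower. Tgfa (ENSMUSG00000029999, chr6:86195223-86275719), a ligand of the EGF receptor, had 850, 622 and 583 counts (10.5 ± 2.52 CPM) in wild type and 0, 0 and 4 in knockout, at least 53.4-fold lower. The receptor gene Egfr was at most at 0.280 CPM in any library and was not tested. Mme (ENSMUSG00000027820, chr3:63241537-63386030), the surface peptidase neprilysin, also known as CD10 and found on early B cells and neutrophils, had 409, 820 and 816 counts (10.4 ± 3.404 CPM) in wild type and 0 in knockout, at least 52.6-fold lower. The B cell markers listed went the other way, with 9 of 11 tested genes higher and 0 lower in knockout. Over all genes tested, 19.4% were higher and 10.7% lower. B cell markers summed to 7.90 to 140 CPM in wild type, against 412 to 966 CPM in knockout. Neutrophil markers summed to 9390 to 16111 CPM in wild type, against 2270 to 7025 CPM in knockout, with 6 of 19 lower and 0 higher. The part of either cell type in the level of Mme was not tested.

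A further 4 genes act inside the cell. Plek2 (ENSMUSG00000021118, chr12:78888691-78906964), a pleckstrin that links membrane lipids to actin and is prominent in maturing red cells, had 2200, 311 and 1634 counts in wild type (21.6 ± 15.5 CPM) and 4, 2 and 4 in knockout, at least 109-fold lower. Its relative Plek, of platelets and leukocytes, was higher in knockout (385 ± 57.5 CPM in wild type, 1009 ± 8.64 CPM in knockout, edgeR adjusted p = 0.00179). Mpped2 (ENSMUSG00000016386, chr2:106693269-106868356), a metallophosphoesterase, had 951, 1283 and 1194 counts (17.5 ± 2.11 CPM) in wild type and 4, 0 and 0 in knockout, at least 88.5-fold lower. Hecw1 (ENSMUSG00000021301, chr13:14226438-14523228), a HECT-type ubiquitin ligase of neurons, had 702, 318 and 744 counts (9.10 ± 3.83 CPM) in wild type and 0 in knockout, at least 46.1-fold lower, while its relative Hecw2 did not pass the test. Kif27 (ENSMUSG00000060176, chr13:58287502-58359122), a kinesin of motile cilia, had 141, 145 and 139 counts in wild type (2.17 ± 0.0514 CPM) and 6, 4 and 0 in knockout, at least 11.0-fold lower. Kif27 was the lowest of the 25 genes in wild type and the most even across its libraries.

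The remaining 11 genes are little studied. Fam205a1 and Fam205c, 14.116 kb apart on chromosome 4, had 190, 129 and 300 counts and 190, 166 and 513 counts in wild type, and 0 in all knockout libraries. Fam205a1 has near copies: Fam205a4, Fam205a3 and Fam205a2 match it over 3945 to 4146 bases at 98.9% identity, and they had at most 85 counts in any library, so the split of reads among them is uncertain. The longest identical run between Fam205a1 and Fam205c was 12 bases. Gm21955, which met the knockout limit and missed the wild-type limit by 12 counts, matches Fam205a1 over 206 bases at 98.1% identity on the opposite strand. E330017A01Rik (308, 102 and 298 counts in wild type) and the lincRNAs Gm32122 (552, 254 and 612) and Gm29677 (366, 330 and 363) were at 0 in knockout, save for 5 counts of Gm29677 in replicate 3. BX908741.1, the gene without a position, had 328, 651 and 118 counts in wild type and 0 in knockout.

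Gm10095 (ENSMUSG00000113555, chr12:86845778-86846467) is a processed pseudogene of the ribosomal protein gene Rpl21. It had 1419, 1119 and 1875 counts in wild type and 0 in each knockout library, at least 115-fold lower. Its transcript matches those of 83 other genes at 90% identity or more over at least 150 bases. Rpl21 itself matches over 483 bases at 98.8% identity and had 17852, 14818 and 20071 counts in wild type and 14215, 9436 and 10744 in knockout. Of the 83 genes, 16 had at least 100 counts in every library, among them Gm13370 and Gm10240, which match Gm10095 at 99.2% identity over 483 bases and kept 7193 to 9672 counts in the knockout libraries. Reads of these copies cannot be assigned with certainty, and yet Gm10095 received none in knockout.

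A tested gene is overlapped by 6 of the 25 genes. In the 4 pairs on opposite strands the exons share 112 (Asb17os), 113 (Gm13372), 189 (Slc25a21) and 272 bases (D330025C20Rik), or 3.88% to 16.4% of the exon bases of the gene described. As the use of strand in counting is not stated, reads within those bases cannot be assigned. The exons of the 2 pairs on the same strand share 0 bases. Gm37527 and Fam205a1 lie within the other gene's body, so unspliced reads of that gene cannot be told from theirs. Gm37527 lies within Kel, a surface peptidase of red cells that carries the Kell blood group, on the same strand, and Kel had 7999, 5379 and 8237 counts in wild type and 194, 20 and 167 in knockout. D330025C20Rik overlaps the potassium channel gene Kcng2 on the opposite strand, which had 1075, 497 and 1595 counts in wild type and 12, 24 and 48 in knockout. Gm13372 (209, 151 and 330 counts) overlaps the collagen gene Col5a1 on the opposite strand, which had 13394, 7639 and 13043 counts in wild type and 154, 77 and 222 in knockout. Fam205a1 overlaps Gm12394 on the same strand (30, 39 and 43 counts in wild type and 0 in knockout). Asb17os (359, 305 and 450 counts) overlaps Asb17 (156, 21 and 111 counts in wild type and 0 in knockout). Slc25a21 shares 189 bases on the opposite strand with Pax9, a transcription factor of tooth and thymus development, which had 47, 41 and 53 counts in wild type and 0 in knockout.

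The rule did not use the counts of genes nearby, so these can be read against all genes. Within 100 kb of the 24 placed genes lay 132 other genes, of which 56 were tested. Of these, 23 were lower (41.1%, beside 10.7% of all genes tested), 3 were higher (5.36%, beside 19.4%) and 30 were not past the threshold, with a median log2 fold change of −0.73 beside 0.04 over all genes. The 6 tested genes that overlap one of the 25 were all lower (Kel, Kcng2, Col5a1, Asb17, Pax9 and Gm12394). Without genes that overlap, 17 of 50 were lower (34.0%) and 3 higher. Among the lower genes that do not overlap were Trpv5, a calcium channel near Gm37527 (50, 268 and 187 counts in wild type and 0, 0 and 5 in knockout, at least 12.9-fold lower), and Cpox, an enzyme of heme synthesis near E330017A01Rik (259 ± 122 CPM in wild type, 8.37 ± 0.652 CPM in knockout, log2 fold change −4.95, SE 0.43, edgeR adjusted p = 0.000502). Near Kif27, Gkap1 (log2 fold change −2.88, SE 0.36) and 2210016F16Rik (−2.19, SE 0.27) were lower (edgeR adjusted p = 0.00159 and 0.00146). Near Asb17os, the prenyltransferase subunit Rabggtb was lower (179 ± 44.3 CPM in wild type, 34.4 ± 7.65 CPM in knockout, edgeR adjusted p = 0.00105). Among the higher genes were Scn11a and Dnajb5 (log2 fold change 1.37, SE 0.42, edgeR adjusted p = 0.0435), which lies 75580 bases from Fam205c. The call of Dnajb5 was lost without any 1 library other than wild-type replicate 2 (adjusted p up to 0.138).

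Neighbours of 1 gene share a place, so they are not independent. Of the 24 placed genes, 19 had a tested neighbour. Gm10095, Pawr and Plek2 had no neighbour past the threshold among 1, 1 and 4 tested. Kel and Cpox serve red cells. Of 20 tested erythroid markers, 15 were lower (beside 10.7% of all genes tested) and 0 higher (beside 19.4%) in knockout. Klf1, a transcription factor of red cells, had 2040, 3125 and 4454 counts in wild type and 51, 26 and 92 in knockout, and Car1 165996, 102722 and 168916 counts and 770, 160 and 1226. The part of erythroid cells in these results was not tested. In the window of 500 kb, 44 of 197 genes were lower (22.3%) and 29 higher (14.7%), and in that of 50 kb, 16 of 30 were lower (53.3%).

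**Figure D3:**
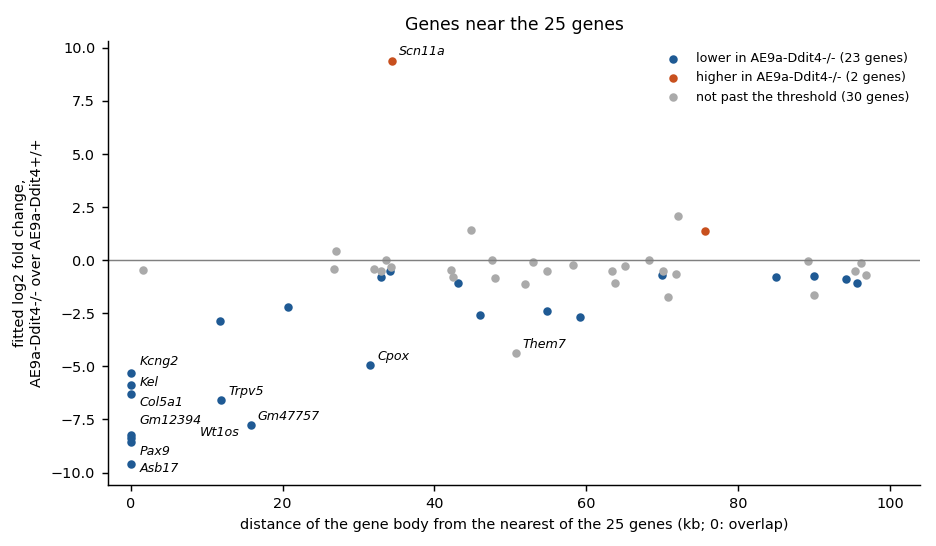
Fitted log2 fold change (AE9a-Ddit4-/- over AE9a-Ddit4+/+) of 55 of the 56 tested genes within 100 kb against their distance in kb from the nearest of the 25 genes, 0 standing for overlap; each point is 1 gene, colored by the edgeR call. The overlapping genes all lie below 0, of the genes plotted only Scn11a lies above 5, and the lower gene farthest off, Snrpg, is at −1.07; fitted values of genes at 0 counts in a group depend on the prior count and are no bounds.

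Genes that share a symbol stem with one of the 25 did not go one way. Of 95 such relatives, 54 were tested, and 15 were lower (27.8%, beside 10.7%) and 20 higher (37.0%, beside 19.4%). The Kif stem gave 12 lower and 10 higher genes among 33. Of the 12 lower ones, 11 had log2 fold changes between −1.47 and −1.02, among them Kif11, a motor of the mitotic spindle (202 ± 52.4 CPM in wild type, 76.1 ± 33.5 CPM in knockout, edgeR adjusted p = 0.0290), and Kif23, of cytokinesis (91.0 ± 12.8 CPM in wild type, 41.9 ± 9.13 CPM in knockout, edgeR adjusted p = 0.00880). The call of Kif11 was lost without wild-type replicate 1 or 3 or knockout replicate 2 (adjusted p up to 0.0940), and that of Kif23 was kept without each library in turn. Kif26b was the exception (7.46 ± 5.21 CPM in wild type, against 0.159 ± 0.192 CPM in knockout). Among the higher ones, Kif19a had 0, 0 and 4 counts in wild type and 605, 798 and 1181 in knockout, at least 68.3-fold higher (edgeR adjusted p = 0.000934). Kif7, a ciliary kinesin of Hedgehog signaling and a close relative of Kif27, was higher (0.939 ± 0.477 CPM in wild type, 17.8 ± 0.437 CPM in knockout, log2 fold change 4.24, SE 0.44, edgeR adjusted p = 0.000848). Among 9 tested Sox genes, Sox6 and its antisense Sox6os were lower, each call being lost without any of several single libraries (adjusted p up to 0.0866 and 0.0666), and Sox4, Sox10, Sox13 and Sox18 were higher. Sox4, a factor of early lymphoid and progenitor cells, had 2.41 ± 1.29 CPM in wild type, against 91.6 ± 47.4 CPM in knockout (edgeR adjusted p = 0.00139). Sox13 was at 1.26 ± 0.299 CPM and 39.5 ± 5.55 CPM (edgeR adjusted p = 0.000177). The count of lower relatives rested on single libraries, and the share over all genes also moved with the library left out. Without 1 library the count ran from 4 (wild-type replicate 1) to 10 (wild-type replicate 2). Those were 6.78% of 59 tested relatives, beside 5.99% of all genes tested, and 16.9% of 59, beside 10.7%.

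The spread within AE9a-Ddit4+/+ comes from the wild-type counts that the rule used, and is given as a description, with no test. The coefficient of variation over the 3 libraries had a median of 35.5% (2.37% in Kif27 to 71.7% in Plek2), beside 25.4% in 5392 other tested genes between 2.17 and 34.5 CPM that also had at least 100 counts in each wild-type library. Plek2, at 34.8, 4.58 and 25.3 CPM, ranged 7.60-fold, and BX908741.1 ranged 5.25-fold, with its highest value in replicate 2 (5.19, 9.59 and 1.82 CPM). Replicate 2 was the lowest of the 3 libraries in 17 of 25 genes, beside 35.9% of those other genes, and the highest in 2 (Mpped2 and BX908741.1), beside 38.5%. The summed CPM of erythroid markers was also lowest in replicate 2 (17178, 8450 and 15052 CPM in the 3 libraries). That of neutrophil markers was highest there (11640, 16111 and 9390 CPM). Such a sum is carried by its most abundant genes, and not every marker followed it, as Klf1 was lowest in replicate 1. The part of either cell type in this spread was not tested. Left out of the rule, replicate 2 would have let 7 more genes in, so that 32 would have met it.

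**Figure D4:**
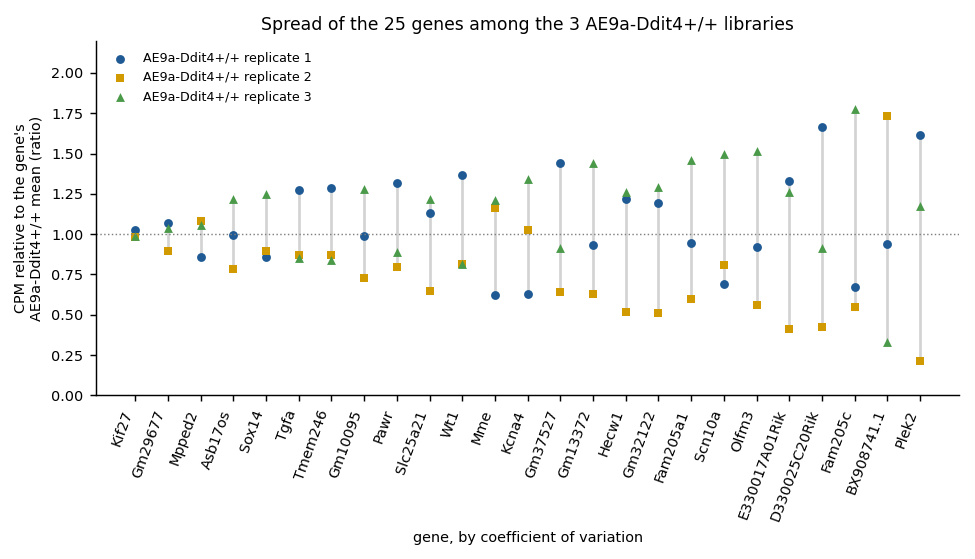
CPM of each of the 25 genes in the 3 AE9a-Ddit4+/+ libraries as a ratio to the mean of that gene over these libraries, ordered by coefficient of variation; each point is 1 library and grey lines span the lowest to the highest. Replicate 2 is the lowest point in 17 of 25 genes, and the span widens from Kif27 to Plek2.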

How the data were processed

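RNA sequencing of 6 libraries (3 AE9a-Ddit4+/+, 3 AE9a-Ddit4-/-; paired NovaSeq reads per the study's methods) was read from 1 table of raw counts per gene that the authors had deposited. The submitters' processing notes name GRCm38 and mm10. The aligner, counter and use of strand are not given in the sources used here, and the methods and labels name different library kits. In each library the values 4, 8 and 12 outnumbered the values 2, 6 and 10 (ratios of 1.405 to 1.62), so some fragments may have been counted more than once. Depth was 62141558 to 72717681 counts, and the floor of 12 counts covers counting error only.

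The 25 genes and all gene lists were chosen with earlier results of these data known. Counts were fitted with edgeR 4.0.16 in R 4.3.3 (filterByExpr, TMM, robust quasi-likelihood F-test, genotype only, 18375 genes tested), with Benjamini-Hochberg adjustment over all genes tested and a threshold of 0.05. The fit was also run on simulated counts with the same dispersion for every gene and few genes changed. That setting is unlike these data, so nothing is read from it. CPM were scaled by TMM. Positions, gene types and exon lengths came from GENCODE M21 on GRCm38 (55240 of 55421 identifiers), and promoter windows from RefSeq on GRCm38.p6. Transcripts were compared by megablast, and matches of at least 150 bases at 90% identity were kept. Relatives share the letters of the symbol before the first digit, in stems of at most 60 genes.

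All 25 genes are named. Of other genes, the text names the 3 nearest to each limit, up to 10 neighbours and 10 relatives past the threshold by size of fold change, list members, and, chosen after their values were seen, further neighbours and relatives past the threshold, Pax6 and the other genes between Wt1 and Kcna4, the copies of Gm10095 and Fam205a1, and Ptprc, Kit, Ddx3y and Egfr. Alternatives were DESeq2 1.42.0, other scalings, filters, limits and windows, a replicate block, and leaving out each library. Some genes that the rule would name are not reported here; they remain in the counts.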

Additional observations from a re-analysis of the deposited data

How the results depend on the processing

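The number of genes that met the rule was 40 at a wild-type limit of 50 counts, 16 at 200 counts, and 27 to 38 with 1 library left out, 38 being without knockout replicate 3. With counts scaled to a common library size it was 25, of which 23 were among the 25 described. All 25 stayed past the threshold under every alternative that could test them. Since the rule used this contrast, nothing is read from that either. A filter of 10 counts in every library removes them by its construction, so it gave no value. The median wild-type level moved by less than the spread between replicates under every alternative.

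The count of genes past the threshold was 5535, 2676 at an adjusted p below 0.01 and 2964 with the replicate block. Neighbours past the threshold numbered 26, and 16 at an adjusted p below 0.01, 16 with at least 10 counts in every library, 73 in the window of 500 kb and 13 with the replicate block (11 lower). Relatives numbered 35, and 23 with at least 10 counts in every library, 17 at an adjusted p below 0.01, 19 with the replicate block, 7 with stems of at most 20 genes, and 21 to 28 with 1 library left out, the lowest without wild-type replicate 1 and 23 without knockout replicate 2. Listed genes past the threshold numbered 108, and 59 under that filter of 10 counts. The filter tests fewer genes, and the threshold, window and stem limits change what is counted, by their construction. For the block and the libraries left out the cause was not tested. Of the relatives, 3 were lower with the block (5.56%, beside 4.28% of all genes tested). No result reversed. Leaving out genes that overlap one of the 25, and setting the wild-type spread beside genes with at least 100 wild-type counts, were chosen after seeing the data.

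The replicate numbers did not pair the samples. Deviations of libraries with the same number correlated at −0.306, −0.347 and −0.008, and no library correlated best with its own number. At this depth a knockout library at 0 counts still allows a level of up to 12 counts, so the folds of the 25 genes are bounds against that floor. Pawr, Plek2 and Tmem246 were counted in all knockout libraries, and for them the floor is no upper limit.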

Other observations

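Of 13 tested carbonic anhydrases 3 were lower and 5 higher in AE9a-Ddit4-/-, beside 10.7% and 19.4% of all genes tested. Car1, of red cells, had 2250 ± 639 CPM in wild type, against 10.6 ± 7.19 CPM in knockout, and Car9, a hypoxia-induced surface enzyme, 0.724 ± 0.227 CPM, against 12.9 ± 5.38 CPM (edgeR adjusted p = 0.000772 and 0.00128, n = 3). Of 2 tested carboxylesterases, Ces2g was lower, with 518 ± 196 CPM in wild type, against 2.19 ± 1.22 CPM in knockout (edgeR adjusted p = 0.000299). Of 7 tested class I myosins, Myo1d was lower (95.6 ± 46.6 CPM and 0.263 ± 0.0910 CPM) and Myo1e higher (0.177 ± 0.234 CPM and 5.02 ± 1.21 CPM; edgeR adjusted p = 0.000195 and 0.0187). Myo1d, with 14, 12 and 27 counts in knockout, lay just above the limit of 8 counts. These lists were chosen with earlier results of these data known.

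Marker genes of the other cell types listed were more often higher than lower in knockout, as were all genes tested (19.4% higher and 10.7% lower). The counts were 9 of 12 tested genes higher and 1 lower for megakaryocytes and platelets, 18 of 23 higher for T and NK cells, 8 of 14 higher and 1 lower for stroma and endothelium (Vwf being the lower gene in both), 6 of 13 higher for dendritic cells, 5 of 10 higher for mast cells and basophils, 5 of 17 higher for monocytes and macrophages and 3 of 5 higher for eosinophils, with 0 lower in the lists where none is given. Itga2b, the platelet integrin subunit CD41, had 116 ± 28.9 CPM in wild type, against 2020 ± 279 CPM in knockout (log2 fold change 4.13, SE 0.26, edgeR adjusted p = 0.000195, n = 3). None of the 25 genes is in these lists.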
